A study of Phyllostachys edulis with 12 samples.

Results

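Of the 47091 genes counted in moso bamboo seedlings, 59 stood above their control level within the first hour of cold and were back near it after 1 day. They were chosen by their measured levels, in CPM (a gene's count scaled to the total count of its library). A member had a mean of at least 2 CPM over all libraries. At 0.5 h or at 1 h its mean was at least 2 times the control mean and its lowest library lay above the highest control library. Its 24 h mean was no more than 25% above the control mean. Every level and contrast below uses values that chose the members, so all of them are given as a description and support nothing beyond it. The contrasts against the control all share its 3 libraries.

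RNA sequencing was done on seedlings of moso bamboo (Phyllostachys edulis), a woody grass, that were 3 weeks old. Untreated control seedlings grew in a greenhouse, and seedlings at the three-leaf stage were held at -2 °C for 0.5 h, 1 h or 24 h with the light and day length of the controls. The values come from 11 libraries, with 3 for the control, 3 at 0.5 h, 3 at 1 h and 2 at 24 h. The labels name no genotype and do not say whether a library is 1 plant or a pool, so the spread between libraries may be technical. In whole seedlings, fewer cells of a type and less RNA per cell cannot be told apart.

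Plants sense cold within minutes, and calcium signals and early transcription factors act before the genes that build freezing tolerance. Some early genes are known in other plants, such as Arabidopsis, for a short burst that ends while the cold goes on. The identifiers in the table are not paired with gene names or descriptions, so no known cold gene, pathway or family could be looked up here. Identifiers that start with PH01 are 1 type, and those listed as newGene are the other.

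Total counts lay between 29304206 and 34543663 per library. Over all genes, the 24 h libraries were the least like the others, with correlations of log2 CPM of 0.916 to 0.929 to libraries of other groups, against 0.935 to 0.952 between different groups among control, 0.5 h and 1 h. Most members had low levels: the median member had 228 counts summed over the 3 control libraries, and 37 of the 59 averaged under 5 CPM. The share of all genes under 5 CPM was not taken.

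The early rise itself was met by 228 genes, 0.826% of the 27617 genes with a mean of at least 2 CPM. At 24 h, 59 of them were within the 24 h limit, 36 lay between that limit and 2 times, and 133 were still at 2 times or more. The time of the rise divided these genes unevenly. Of 66 genes that met the rise at 0.5 h only, 16 (24.2%) were members. Of 90 genes that met it at 1 h only, 41 (45.6%) were members. Of 72 genes that met it at both times, 2 (2.78%) were members, and 63 (87.5%) were still at 2 times the control or more after 24 h. Most members thus met the full rise at 1 early time. Among those that met it at 1 h only, 8 also had a 0.5 h mean of at least 2 times the control but overlapped the controls there. These shares follow from levels that the choice used, and no test of them was made.

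**Figure D1:**
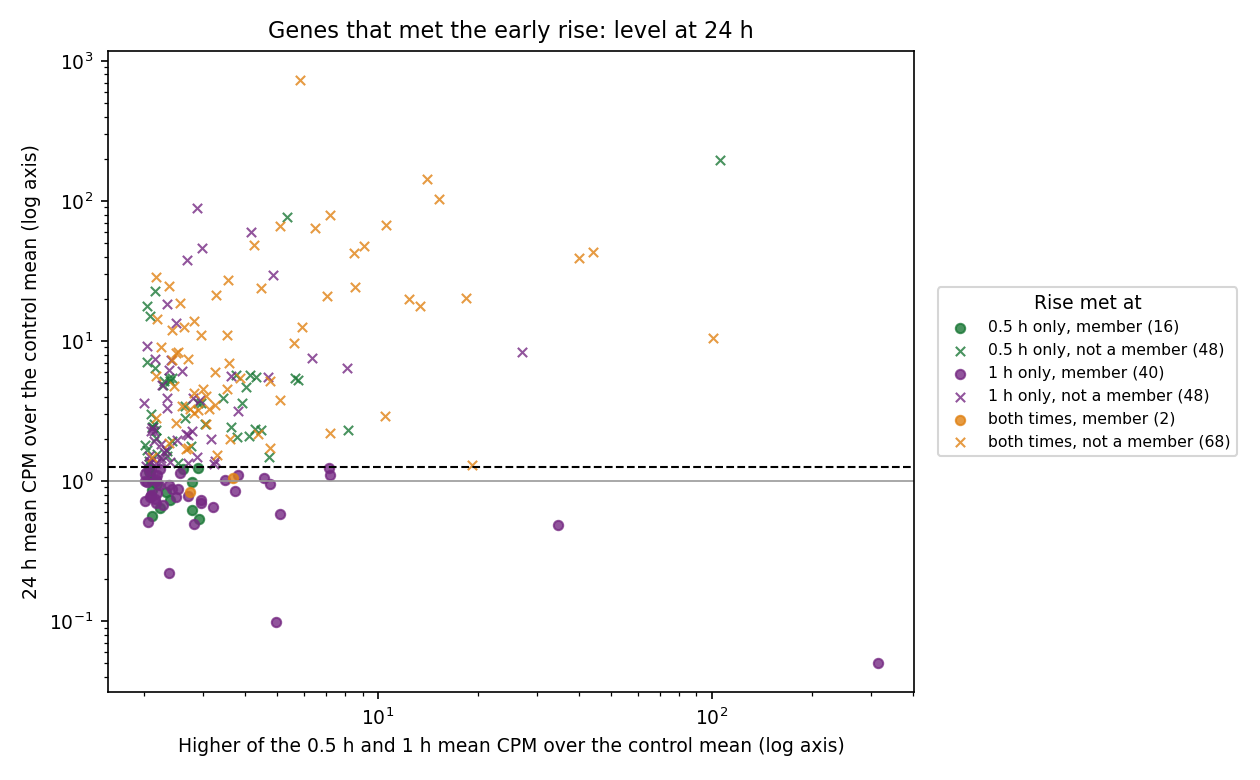
The 24 h mean against the higher of the 0.5 h and 1 h means, each divided by the control mean (both log axes), for 222 genes that met the early rise. Filled points are members and crosses the other genes, the dashed line marks the limit of 25% above the control, 1 member with no count at 24 h is drawn at the lower edge, and 6 genes with 3 counts or fewer over the controls are not drawn. Genes high at both early times lie almost all above the dashed line.

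The 16 members that met the rise at 0.5 h only made a narrow group. Their 0.5 h means were 2.06 to 2.91 times the control mean, with a median of 2.2. Their median control level was 4.55 CPM and their median 0.5 h level 10.8 CPM. At 1 h, where they by definition did not meet the rise, their means were 1.24 to 1.92 times the control, with a median of 1.60, against a median of 1.04 over the 27617 genes. All 16 lay above the control mean at 1 h, and both ratios share the control libraries. At 24 h their median ratio was 0.967, and 10 of 16 lay below the control mean.

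The library medians show the same course for these 16 genes. Relative to each gene's control mean, the median was 0.935 to 1.03 in the control libraries, 1.98 to 2.66 at 0.5 h, 1.47 to 1.58 at 1 h and 0.926 to 0.954 at 24 h. No 2 groups next to each other in time overlapped in these medians. Single genes were less clear: in 5 members every 1 h library lay below every 0.5 h library, as in 4.1% of all genes with at least 2 CPM. The highest 0.5 h library was replicate 3 in 11 of the 16, replicate 2 in 4 and replicate 1 in 1.

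PH01000084G1440 had the largest 0.5 h ratio among members that met the rise at 0.5 h and had a control mean of at least 1 CPM. It had 13.8, 13.6 and 48.0 CPM in the control libraries, 64.5, 98.7 and 56.1 CPM at 0.5 h, 28.4, 21.0 and 89.8 CPM at 1 h, and 26.5 and 0.308 CPM at 24 h. Control replicate 3 stood far above the other two, and the 24 h libraries lay one within the range of the controls and the other below it. At 0.5 h it averaged 73.1 ± 22.6 CPM against 25.1 ± 19.8 CPM in the controls (SD, n = 3 each), 2.91 times as much. EdgeR's quasi-likelihood fit over all genes gave a log2 fold change of 1.55 at 0.5 h with an SE of 0.99. The difference did not pass edgeR's test (unadjusted p = 0.144, adjusted p of 1 over all genes tested). Without control replicate 3 edgeR gave 2.48 (adjusted p = 1). For 24 h against 0.5 h edgeR gave -2.30 with an SE of 1.19 (adjusted p = 0.31), -7.77 without 24 h replicate 1 (adjusted p = 0.038) and -1.31 without 24 h replicate 2 (adjusted p = 0.56), so the value depends on which 24 h library is kept.

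A steadier course at 0.5 h was seen in a PH01 gene listed with a length of 16131, picked out after its values were seen. It had 9.24, 9.16 and 10.2 CPM in the control libraries, 19.3, 20.2 and 19.5 CPM at 0.5 h, 15.0, 21.7 and 15.3 CPM at 1 h, and 13.9 and 9.66 CPM at 24 h. Both early groups lay wholly above the controls. At 24 h, replicate 2 lay within the range of the controls and replicate 1 between the controls and the early libraries. With edgeR, its log2 fold change at 0.5 h was 1.07 ± 0.18 (SE, adjusted p = 0.14) and that at 1 h was 0.81 ± 0.18 (SE, adjusted p = 0.44). DESeq2 gave adjusted p-values of 6.5e-05 and 0.02 for the same contrasts, and it was the only member DESeq2 called higher at both early times.

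**Figure D2:**
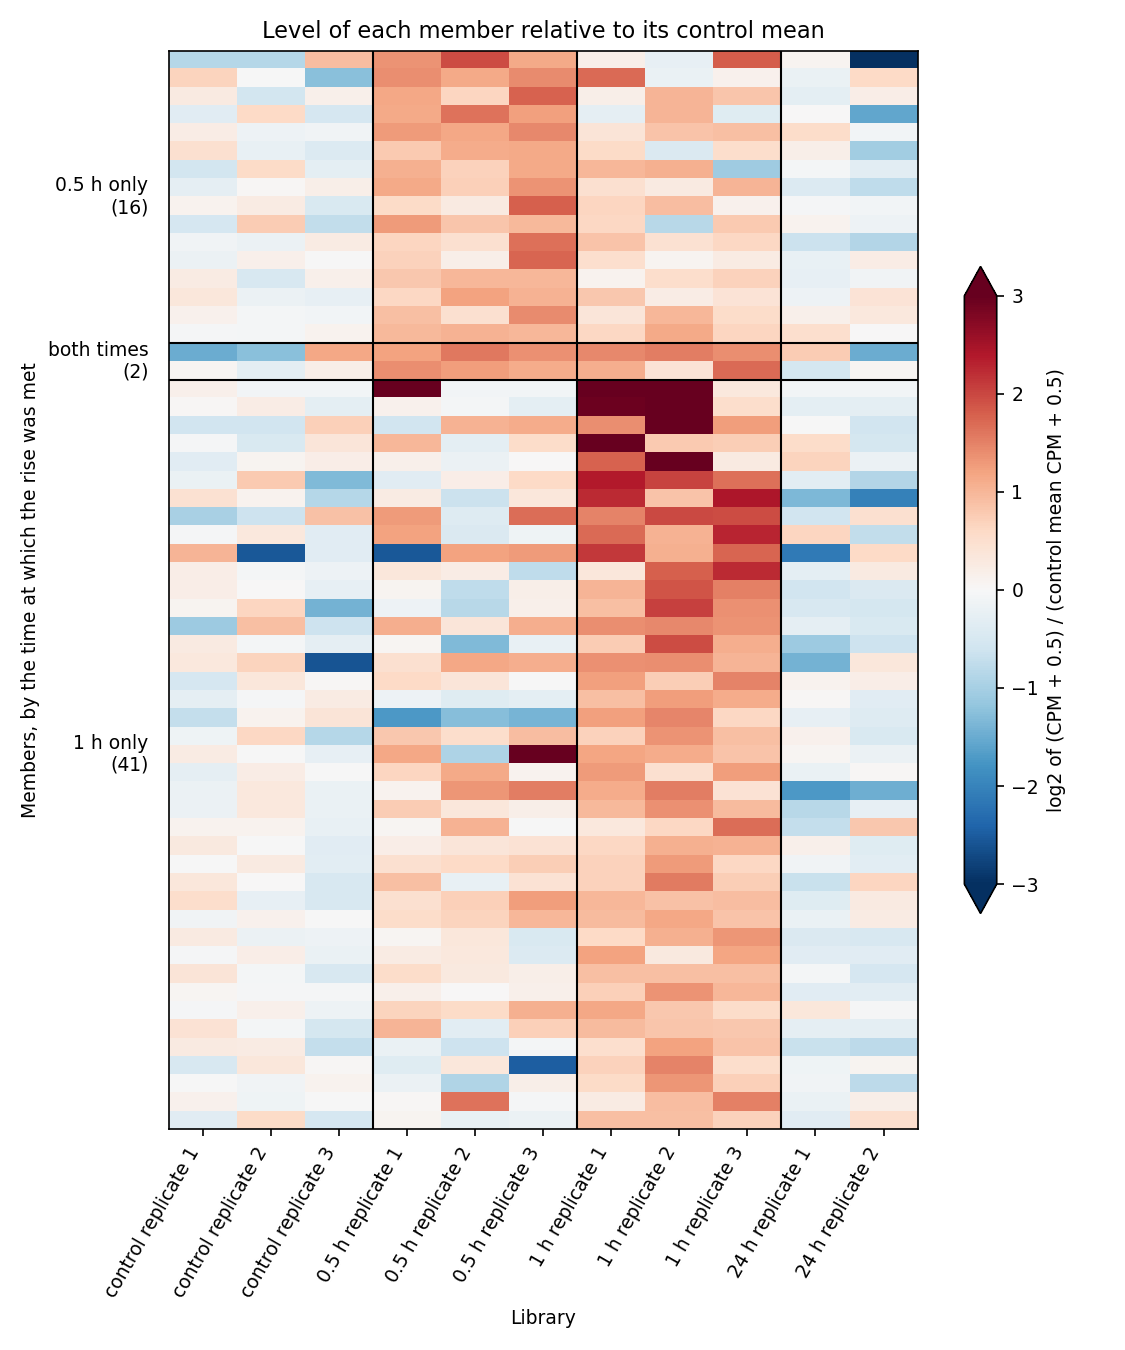
Each row is 1 of the 59 members and each column 1 library, with the log2 ratio of CPM to the gene's control mean (0.5 CPM added to both) from blue (below) to red (above), cut off at 3 in either direction. Members are grouped by the time at which the rise was met and sorted by the size of the early ratio, and the 24 h columns return to pale or blue.

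The 41 members that met the rise at 1 h only were more mixed. Their 1 h means were at least 2 times the control with a median of 2.39, and 29 of them lay under 3 times. At 0.5 h their median ratio was 1.38, against 0.977 over all genes with at least 2 CPM, with 17 at 1.5 times the control or more and 10 below the control mean. In 21 of them every 0.5 h library lay below every 1 h library, which held for 12.3% of all genes with at least 2 CPM. At 24 h their median ratio was 0.821, 29 of 41 lay below the control mean, and 6 were at 0.5 times it or lower. The median over all genes with at least 2 CPM was 0.901 at 24 h, so the typical gene also lay below its control mean at this scaling.

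Their library medians, relative to each gene's control mean, were 0.818 to 1.09 in the controls, 1.151 to 1.2502 at 0.5 h, 2.2 to 2.73 at 1 h and 0.730 to 0.785 at 24 h. The 1 h libraries stood clear of the other groups in these medians. Summed over the 41 genes, the level was 150.4 to 184 CPM in the control libraries, 212 to 222 CPM at 0.5 h, 429, 1107 and 388 CPM in 1 h replicates 1, 2 and 3, and 151 and 152 CPM at 24 h. Replicate 2 at 1 h held the highest level in 24 of the 41 genes, replicate 1 in 10 and replicate 3 in 7.

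In 1 h replicate 2, 3 genes held 699 of the 1107 CPM. PH01001272G0030, the member with the highest mean over all libraries, had 20.9, 28.1 and 30.6 CPM in the control libraries, 29.7, 23.6 and 26.7 CPM at 0.5 h, 92.1, 444 and 32.2 CPM at 1 h, and 42.4 and 23.6 CPM at 24 h. Its lowest 1 h library was at 1.05 times the highest control, while the highest was 4.81 times the next. At 1 h it averaged 189 ± 222 CPM against 26.5 ± 5.03 CPM in the controls (SD, n = 3 each). The log2 fold change of 2.77 (SE 0.73) did not pass edgeR's test (adjusted p = 0.56), and was 1.18 without 1 h replicate 2 (adjusted p = 0.81). For 24 h against 1 h edgeR gave -2.29 with an SE of 0.83 (adjusted p = 0.11). Without 1 h replicate 2, its highest library, this was -0.71 (edgeR adjusted p = 0.37), and without 1 h replicate 3, its lowest at that time, it was -2.80 (edgeR adjusted p = 0.027).

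The other two were near 0 outside 1 h and are given without identifiers, having been picked out after their values were seen. A newGene entry listed with a length of 1332 had 22.8, 156 and 0.16 CPM at 1 h, and 3.99 CPM in 0.5 h replicate 1. It had no count in the other 0.5 h libraries or at 24 h, and 3 counts in all in the controls. A PH01 gene listed with a length of 3143 had 4.17, 99.8 and 0.383 CPM at 1 h, 0 to 0.208 CPM in each control and 0.5 h library, and no count at 24 h. A sum of 0 counts at 24 h allows a level of up to 0.0480 CPM over both libraries (3 counts), for counting error only. In both genes, 1 h replicate 3 stood close to the controls while the other two 1 h libraries were 6.81-fold apart in the newGene entry and 23.9-fold apart in the PH01 gene.

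PH01000106G0920 had the largest 1 h ratio among members that met the rise at 1 h and had a control mean of at least 1 CPM, and it too rested on 1 library, here 1 h replicate 1. It had 1.36, 0.893 and 1.98 CPM in the control libraries, 3.31, 1.06 and 2.32 CPM at 0.5 h, 24.9, 2.82 and 2.68 CPM at 1 h, and 2.30 and 0.831 CPM at 24 h. The mean at 1 h was 7.18 times the control mean, and 1.95 times without the highest library. At 1 h against the control edgeR gave a log2 fold change of 2.79 with an SE of 0.86 and an adjusted p of 0.61, where DESeq2 gave an adjusted p of 0.045. For 24 h over 1 h edgeR gave -2.47 with an SE of 0.99 and an adjusted p of 0.15, where DESeq2 gave an adjusted p of 0.028. Without 1 h replicate 1 edgeR gave 0.90 for 1 h against the control (adjusted p = 0.75) and -0.59 for 24 h over 1 h (adjusted p = 0.6).

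Phyllostachys_edulis_newGene_537 had the lowest 24 h level relative to the control among members with a control mean of at least 1 CPM. It had 2.26, 1.70 and 0.626 CPM in the control libraries, 1.91, 0.797 and 2.07 CPM at 0.5 h, 9.15, 3.19 and 10.5 CPM at 1 h, and 0.30 and 0 CPM at 24 h. All 1 h libraries lay above the rest, and both 24 h libraries lay below the rest. At 24 h against 1 h it fell, with a log2 fold change of -5.44 ± 1.04 (SE) and an edgeR adjusted p of 0.01. Without 24 h replicate 2, where it had no count, edgeR gave -4.41 (adjusted p = 0.055), and without 24 h replicate 1 the adjusted p was 0.017. Against the control edgeR gave 2.27 ± 0.70 at 1 h (SE, adjusted p = 0.61) and -3.17 ± 1.0 at 24 h (SE, adjusted p = 0.083).

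**Figure D3:**
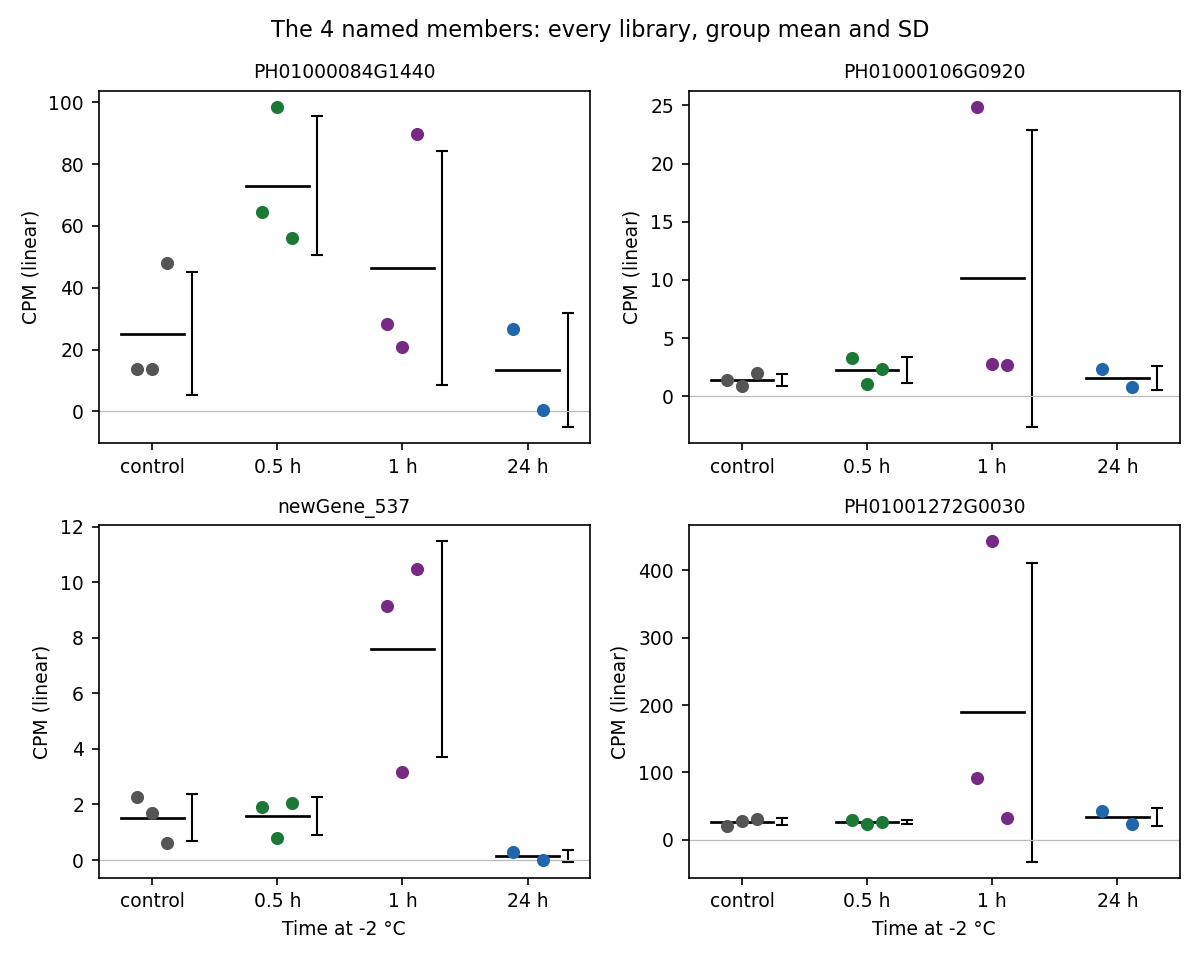
CPM of the 4 named members in every library (points), with the group mean (line) and SD (bar; n = 3, and n = 2 at 24 h), for control, 0.5 h, 1 h and 24 h at -2 °C. In PH01001272G0030 and PH01000106G0920 a single 1 h library lies far above the other two, while in newGene_537 all 3 lie above the other groups.

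An abundant newGene entry, listed with a length of 13389 and picked out after its values were seen, had closely grouped libraries. It had 31.3, 29.6 and 29.6 CPM in the control libraries, 33.6, 30.5 and 33.5 CPM at 0.5 h, 49.9, 78.2 and 60.9 CPM at 1 h, and 23.8 and 24.3 CPM at 24 h. The 1 h libraries lay wholly above, and the 24 h libraries wholly below, all others. At 24 h against 1 h it fell, with a log2 fold change of -1.17 ± 0.16 (SE) and an edgeR adjusted p of 0.0021, the lowest adjusted p of any member in this contrast. Its log2 fold change at 1 h against the control was 1.01 (SE 0.14), with an edgeR adjusted p of 0.19 and a DESeq2 adjusted p of 4.1e-07.

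A member of the 1 h group lay on opposite sides of the controls within the first hour. This PH01 gene, picked out after its values were seen and listed with a length of 4320, had 1.21, 2.5 and 3.16 CPM in the control libraries, 0.341, 0.649 and 0.556 CPM at 0.5 h, 6.02, 7.26 and 3.76 CPM at 1 h, and 1.87 and 1.63 CPM at 24 h. Every 0.5 h library lay below, and every 1 h library above, every control. For 1 h against 0.5 h the log2 fold change was 3.35 (SE 0.43), with an edgeR adjusted p of 0.18 and a DESeq2 adjusted p of 5.9e-09. It was the 1 member called higher at 24 h than at 0.5 h (log2 fold change 1.88 ± 0.45, SE, with edgeR at an adjusted p of 0.04), a call made for 1.88% of all genes tested.

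The 2 members that met the rise at both times had low levels. A newGene entry listed with a length of 1017 had 2.08, 1.52 and 2.27 CPM in the control libraries, 5.94, 5.31 and 4.85 CPM at 0.5 h, 4.72, 2.76 and 7.47 CPM at 1 h, and 1.20 and 2.06 CPM at 24 h. Its early libraries all lay above its control and 24 h libraries, which overlapped each other. At 0.5 h edgeR gave a log2 fold change of 1.48 with an SE of 0.35 and an adjusted p of 0.38, where DESeq2 gave an adjusted p of 0.024. A PH01 gene listed with a length of 7572 had 0, 0.0893 and 2.64 CPM in the control libraries, 2.73, 3.72 and 3.12 CPM at 0.5 h, 3.33, 3.55 and 3.19 CPM at 1 h, and 1.90 and 0 CPM at 24 h. Control replicate 3 lay just under its lowest early library, and its control and 24 h libraries each ran down to 0.

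Fitted over all 39640 genes tested, of which all 59 members were part, edgeR called none of the members at either early time. At 0.5 h against the control it called 0 members higher, as against 0.00757% of all genes, while 22 members had an unadjusted p under 0.05 and a higher level (2.76% of all genes) and 1 a lower level (1.88% of all genes). DESeq2, which tested 58 of the members, called 7 higher at 0.5 h (0.426% of all genes). At 1 h against the control edgeR called 0 members higher (0.00505% of all genes), 40 had an unadjusted p under 0.05 and a higher level (3.59% of all genes), and DESeq2 called 11 (0.317% of all genes). At 1 h against 0.5 h edgeR called 0 members higher (0.00252% of all genes), 23 had an unadjusted p under 0.05 and a higher level (3.25% of all genes), and 6 had one and a lower level (3.71% of all genes). DESeq2 called 7 higher in that contrast (0.181% of all genes). The median log2 fold change of the members was 0.88 at 0.5 h and 1.07 at 1 h, where that of all genes was 0.00 at both. Because the choice used these contrasts, nothing is read from the counts.

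The calls lay in the later contrasts. At 24 h against 1 h edgeR called 15 members lower and 0 higher, against 5.06% of all genes called lower, and the 15 had log2 fold changes of -13.0 to -0.85 with a median of -1.54. The -13.0 belongs to the PH01 gene with a listed length of 3143, which had no count at 24 h, so that fitted size is no bound. Their median level was 2.89 CPM in the control libraries, 8.74 CPM at 1 h and 1.52 CPM at 24 h. Of the 15, 13 had met the rise at 1 h only and 2 at 0.5 h only. Against 0.5 h, edgeR called 3 members lower at 24 h (3.18% of all genes), with log2 fold changes of -3.30 to -1.66, and all 3 were among the 15. The count of 15 was 9 without 1 h replicate 2. It fell further without either 24 h library, which leaves 1 library at that time. The 3 calls against 0.5 h were lost without 24 h replicate 2. Shares of all genes were not taken for these runs, so no drop particular to the members is read from them.

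At 24 h most members lay near the control level. Of the 59, 34 had a 24 h mean of at least 0.8 times the control mean, 40 lay below the control mean, and 6 were at 0.5 times it or lower. Both 24 h libraries lay below every control in 11 members, or 18.6%, where 33.1% of all genes with at least 2 CPM did. With edgeR's TMM scaling, which compares libraries by their typical gene instead of their total, the median log2 fold change of the members at 24 h was -0.05 and that of all genes was -0.01. With library size alone these medians were -0.21 and -0.18. EdgeR called 1 member at 24 h against the control, and it was lower (4.34% of all genes were called lower). This PH01 gene, listed with a length of 1784, had 0.534 and 0.738 CPM at 24 h against 2.51, 3.69 and 2.47 CPM in the control libraries, a log2 fold change of -2.01 ± 0.52 (SE) with an edgeR adjusted p of 0.041. That call was lost without any 1 of the 3 controls, 0.5 h replicate 2, 1 h replicate 1 or 24 h replicate 2.

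The 24 h mean of a member could hide a gap between its libraries. The pair of 24 h libraries lay at least 2-fold apart in 16 of the 59 members. The share of all genes with such a gap was not taken, so nothing particular to the members is read from this count. In 17 members a 24 h library exceeded the limit although the average of the pair did not. The limit was met by each 24 h library alone in 42 members.

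The early level of some members leaned on 1 library, and the share of all genes with this trait was not taken. The highest early library held over 50% of its group's summed CPM in 11 of the 59. Without that library, 38 members kept an early mean of at least 2 times the control, and 3 lay under 1.5 times. Leaving out the highest library can only lower a mean, and 23 members had an early ratio under 2.2 with it. The lowest early library lay only slightly above the highest control in many cases, with a median of 1.35 times, under 1.1 times in 10 members and at 1.5 times or more in 16.

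**Figure D4:**
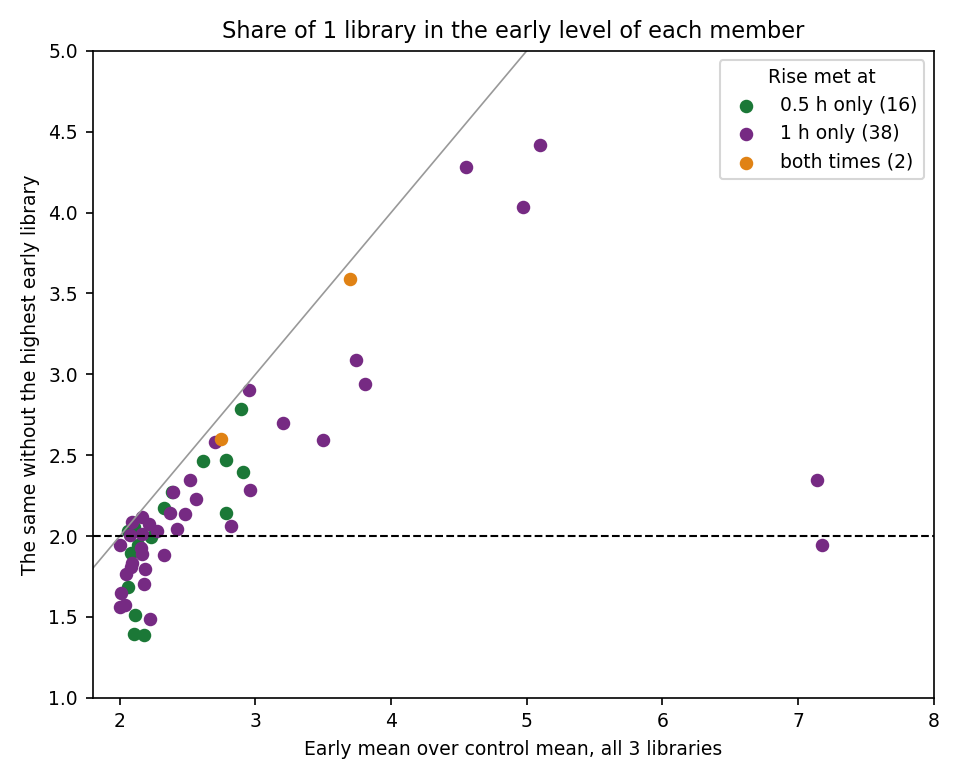
The mean at the early time that met the rule divided by the control mean, with all 3 early libraries (horizontal) and without the highest of them (vertical), for the 56 members with a ratio of up to 8. The solid line marks equal values and the dashed line 2 times the control, and the pair of points near 7 on the horizontal axis are PH01001272G0030 and PH01000106G0920, at 2.34 and 1.95 without their highest library.

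Replicates of the members differed more than those of genes with a like mean over all libraries. The median coefficient of variation (SD over mean) was 29.4% in the controls, 30.9% at 0.5 h, 30.6% at 1 h and 28.9% at 24 h. For 6641 genes within the interquartile range of the members' mean levels it was 18.1%, 17.3%, 19.2% and 14.9% in the same order. For the 133 genes whose rise was still at 2 times the control after 24 h it was 31.7%, 45.6%, 21.9% and 15.9%. The members thus varied more than the 6641 genes in every group. Those genes were alike to the members only in the mean over all libraries. The members' median level was 2.39 CPM in the controls, 3.83 CPM at 0.5 h, 6.79 CPM at 1 h and 1.94 CPM at 24 h. Levels were not matched within a group, and the part of level in the spread was not tested. The genes with a lasting rise varied more than the members in the controls and at 0.5 h, and less at 1 h and 24 h. They were not matched to the members for level. The rule asks for groups that differ and so bears on spread, and no test was made.

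Compared with those 133 genes, the members had smaller early ratios. The median ratio was 2.37 for the members and 3.06 for the genes with a lasting rise, and the median gap between the lowest early library and the highest control was 1.35 times and 1.52 times. Where a gene met the rise at both times, the time with the higher ratio was used. This was so for 2 of the 59 members and 63 of the 133 lasting genes, so the medians are not strictly the same measure. The median control level was 2.39 CPM for the members and 2.30 CPM for the lasting genes. Over all libraries the median of the mean levels was 4.14 CPM for the members and 8.45 CPM for the lasting genes. A single library holding over 50% of the early sum was less frequent among the members, at 18.6% against 40.6%. Without the highest library, however, 64.4% of the members and 73.7% of the lasting genes kept a ratio of at least 2, and neither difference was tested.

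The rule did not use the type of identifier or the gene length. CPM is not scaled by length, however, so length can bear on the minimum of 2 CPM. The groups compared here were not matched for level. Of the 59 members, 40 (67.8%) had a PH01 identifier and 19 were listed as newGene, where 76.6% of the genes with at least 2 CPM and 76.7% of the genes with a lasting rise had a PH01 identifier. Among members high at 0.5 h only, 15 of 16 had a PH01 identifier, and among those high at 1 h only 24 of 41 did. The median listed length was 3163 for the members, 2332 for the genes with a lasting rise and 5666 for all genes with at least 2 CPM. The 40 PH01 identifiers of the members had 40 different stems (the part before the letter G), so no pair shared one. These are descriptions, with no test.

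Several members lay close to a limit of the rule. The smallest early ratio inside was 2.002 and the largest outside was 1.99. The highest 24 h ratio inside was 1.24 and the lowest outside was 1.28. The lowest mean inside was 2.02 CPM and the highest outside was 1.96 CPM. The smallest gap between the lowest early library and the highest control was 1.003 times inside, and the nearest gene outside was at 0.989. In all, 23 members had an early ratio under 2.2 and 11 a mean under 2.5 CPM.

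A smaller set met the rule whichever single library was left out. It held 16 of the 59 members: 3 high at 0.5 h only, 12 at 1 h only and 1 at both times. Their smallest early ratio was 2.16, their median 24 h ratio 0.683 and their highest 1.04. Of the 15 members called lower at 24 h against 1 h, 6 were in this set. It was defined on the same libraries, so it describes which members met the limits after each omission and is no independent check. The size of a rise in this set could still lean on 1 library. In the newGene entry with a listed length of 1332, which is in the set, 1 h replicate 2 held 87.1% of the 1 h sum.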

How the data were processed

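The deposited table gives 1 whole-number count per gene and library. The counts are raw, with a different total per column. Per the submitters' processing notes, HISAT2 was used. Not given in the sources used here are its version, the build, the annotation, the counter and how strand and shared reads were treated, and near-identical or overlapping genes are therefore uncertain. The authors' table also lists a gene length. Each column took its sample from the code that the sample's description gives. This left 11 of 12 labelled samples; 24 h replicate 3 was not analysed here, and 1 count column matched no label and was not used. Codes in the labels skip 1 number and those in the table do not, so the unused column may be a 24 h library if the 2 were numbered separately, and the 24 h replicate numbers would then shift.

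Members were found on CPM by column total. With R 4.3.3, edgeR 4.0.16 fitted all 11 libraries (filterByExpr, TMM, quasi-likelihood F-test, 1 mean per group), with Benjamini-Hochberg adjustment over 39640 genes and calls at an adjusted p under 0.05. SE is the log2 fold change over the square root of F. DESeq2 1.42.0 was an alternative; 1 of the 59 members had no adjusted p there. The fit had been planned for 3 libraries at 24 h and was run with 2. The p-values set a difference of group means against the spread between these libraries alone. That spread is estimated over all groups together and drawn toward that of other genes. Time in the cold and any batch processed with it cannot be told apart. Scripts were tested on simulated data. Other scalings, filters, limits and single libraries left out were tried. No replicates agreed within sampling noise (lowest chi-square per degree of freedom 20.8).

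The named genes are, by rule, the largest 0.5 h ratio among members that met the rise at 0.5 h, the largest 1 h ratio among those that met it at 1 h, the lowest 24 h ratio and the highest mean, each with a control mean of at least 1 CPM. With no names in the table, identifiers are limited to these 4. Members and rules were chosen with earlier results of these data known. The gene lists written for this work needed names and could not be used.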

Additional observations from a re-analysis of the deposited data

Results flagged for a closer look

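Each result here is a difference between times in the cold that passed edgeR's test, or opposite positions of all libraries. Since the control cancels, a contrast between 2 times also tests whether their fold changes against the control differ. The choice of members used these levels, so none of these is independent of it.

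At 24 h against 1 h, 15 members (25.4%) were lower (edgeR adjusted p of 0.0021 to 0.048), where 5.06% of all genes were. At 24 h against 0.5 h, 3 members (5.08%) were lower (edgeR adjusted p of 0.0062 to 0.019), where 3.18% of all genes were. In that contrast 1 member (1.69%) was higher (edgeR adjusted p = 0.04), where 1.88% of all genes were. The shares against 0.5 h lay near those of all genes. The rule itself asks for a high early level and a low 24 h level. Nothing about the members is therefore read from any of these shares. Phyllostachys_edulis_newGene_537 had a log2 fold change of -5.44 at 24 h against 1 h (edgeR adjusted p = 0.01).

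The PH01 gene listed with a length of 4320 was at 0.225 times the control mean at 0.5 h and at 2.48 times at 1 h, with every library of each group on its own side of the controls. Its difference between these times did not pass edgeR's test (adjusted p = 0.18) and passed that of DESeq2 (adjusted p = 5.9e-09). No group has 4 libraries, so no single library was tested for standing apart.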

How the results depend on the processing

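The 59 members became 45 with TMM-scaled sizes (43 shared) and 43 with DESeq2 size factors (41 shared). They became 98 with a minimum of 1 CPM, 22 with 5 CPM, 285 with an early fold of 1.5 and 13 with an early fold of 3. Leaving out 1 library gave 57 to 102 members, with 94 without control replicate 1 and 102 without 1 h replicate 1.

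Shares of all genes called in the same direction follow each DESeq2 count. Against the control, DESeq2 called 7 members higher (0.426%) and 1 lower (0.0781%) at 0.5 h. It called 11 higher at 1 h (0.317%) and 3 lower at 24 h (6.6%). At 1 h against 0.5 h it called 7 higher (0.181%). At 24 h it called 11 lower (5.59%) and 1 higher (3.85%) against 0.5 h, and 25 lower against 1 h (7.7%). With library size alone, edgeR called 7 lower and 1 higher at 24 h against 0.5 h and 23 lower at 24 h against 1 h. The share of all genes was not taken for that run. The cause of these differences was not tested. Leaving out 1 library gave 0 calls at 0.5 h against control, 0 to 1 at 1 h and 0 to 1 at 24 h. It gave 0 to 1 calls at 1 h against 0.5 h, 0 to 5 at 24 h against 0.5 h and 3 to 14 at 24 h against 1 h. Where 1 of the 24 h libraries is left out, the fit takes the spread of the other groups for the lone library. Shares of all genes were not taken for the runs with a library left out.

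Same-numbered libraries of different groups did not deviate together: 2 of 15 correlations were over 0.1, in a range of -0.21 to 0.171, and 1 of 11 libraries correlated best with its own number. Pairs with different numbers ranged from -0.244 to 0.304, the highest between 0.5 h replicate 3 and 1 h replicate 2. With the replicate number as a block, 0 members were called at 24 h against control and 12 at 24 h against 1 h. The share of all genes was not taken for the block run. None of the 8 fold changes of the named genes reversed under any alternative run. Depth limits the thinnest members, whose lowest count in a library that met the rise was 5.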
